A study of Mus musculus with 30 samples.

Results

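Serum deprivation (SD) was compared with culture in 2% horse serum (2% HS) in C2C12 myotubes, across all genes of the count table. The 12 libraries were taken by their titles, 6 named as serum deprived and 6 named as controls, out of 30 libraries in the series. C2C12 is a mouse myoblast line, wild type by its label, whose cells leave the cell cycle at confluence and fuse into multinucleated myotubes when serum is lowered. All cultures were grown in high-glucose medium with 10% fetal bovine serum and then differentiated for 4 days in low-glucose medium with 2% HS. The 2% HS group stayed in that medium for a further 4 days, and the SD group had no serum for the same 4 days, which made 8 days in all. The other 18 libraries came from serum-deprived myotubes given 100 nM metformin (MET), 500 nM leucine (LEU) or both (MET+LEU). They entered the model as groups of their own, and their levels are given only beside those of SD. The model is limited to 1 cell line, and a differentiated C2C12 culture also holds unfused mononucleated cells. The sources used here do not say whether replicates were separate cultures, so p-values measure the spread between these libraries, which may be technical.

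Serum supplies cultured cells with growth factors and hormones, and with lipids, iron, retinol, selenium and other nutrients bound to carrier proteins. In myotubes, growth factor signals maintain protein synthesis and glucose uptake, and their withdrawal is used as a model of atrophy. Several regulators report on such supplies through known target genes, among them SREBP for sterols, HIF for oxygen, ATF4 for amino acids and translation stress, XBP1 and ATF6 for protein folding in the endoplasmic reticulum, and p53 for DNA damage and nucleolar stress.

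Between 12784960 and 19604103 reads were counted on genes in each of the 12 libraries. Levels are given as CPM (read counts scaled to library size with TMM factors), with the lowest, highest and median value of 6 libraries per group, and a single CPM value per group is the median. A number alone after a gene symbol is its log2 fold change, SD relative to 2% HS. Pairs of libraries had a correlation of log2 CPM of 0.990 to 0.992 within 2% HS, 0.988 to 0.992 within SD and 0.981 to 0.987 between the groups. Every pair within a group was thus more alike than any pair between the groups. The cultures carried the transcripts of differentiated muscle. All 8 myotube markers were tested, and their summed level was 9564 to 10439 CPM in 2% HS and 8536 to 10257 CPM in SD. The 9 tested markers of myoblasts and reserve cells, the unfused cells of such cultures, summed to 1483 to 1671 CPM and 1253 to 1465 CPM. Of these lists 1 and 1 members rose and 2 and 4 fell. Of the markers of adipocytes, osteoblasts and chondrocytes, endothelium, immune cells and glia, Adipoq, Lep, Sp7, Acan, Pecam1, Emcn, Ptprc, Adgre1 and Sox10 stayed under the filter on low counts, with at most 13 counts in any of the 12 libraries for any marker so removed. Other members of those lists, mainly transcription factors, were clearly measured. In 2% HS and SD the medians were 25 and 26.2 CPM for Cebpa and 6.97 and 6.28 CPM for Pparg of the adipocyte list, and 116 and 120.3 CPM for Runx2 and 52.3 and 52.4 CPM for Sox9 of the osteoblast and chondrocyte list. These did not pass the test, nor did Cd68 of immune cells (0.22, adjusted p = 0.33), Vwf of endothelium fell (2.60 to 1.33 CPM, -0.92, adjusted p = 7.5e-04), and of 3 glial and neuronal markers Ncam1, which myotubes express, fell by 0.17. In bulk RNA, fewer cells of a type and less RNA per cell cannot be told apart.

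Of 15907 genes tested with edgeR's quasi-likelihood test, 4424 (27.8%) changed in SD vs. 2% HS at an adjusted p under 0.05, 2211 upregulated (13.9%) and 2213 downregulated (13.9%). The median log2 fold change over all genes was 0.0028. The groups did not overlap in 981 genes that were higher in SD (6.17%) and 1181 that were lower (7.42%). Changes of at least 2-fold were found in 166 upregulated and 173 downregulated genes. The genes described next are the 10 in each direction with the largest log2 fold changes among those past the test that had a mean log2 CPM of at least 1, groups that did not overlap, and a symbol other than a clone or predicted name. The upregulated ones coded mostly for secreted proteins, receptors and transporters, and the downregulated ones included glucose and ion transport, an oxidase of the endoplasmic reticulum and a vasoactive peptide.

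Akr1c14 (ENSMUSG00000033715, chr13:4049011-4090688, GRCm38), a 3-alpha-hydroxysteroid dehydrogenase that inactivates steroids, had 2.63 to 3.33 CPM (median 3.10) in 2% HS and 22.6 to 29.6 CPM (median 27) in SD (log2 fold change 3.13, SE 0.09, adjusted p = 1.8e-31). Dpt (ENSMUSG00000026574, chr1:164796644-164824266) encodes dermatopontin, a small matrix protein of fibroblasts, and had 4.95 to 6.32 CPM (median 5.86) in 2% HS and 42.9 to 51.5 CPM (median 48.1) in SD (log2 fold change 3.05, SE 0.07, adjusted p = 2.9e-36). Sfrp2 (ENSMUSG00000027996, chr3:83766321-83774316), a secreted protein that binds Wnt ligands, had 10.6 to 15 CPM (median 13.2) in 2% HS and 56.6 to 74.5 CPM (median 61.5) in SD (log2 fold change 2.24, SE 0.08, adjusted p = 6.6e-23). In all 3 the lowest SD library lay several times above the highest library in 2% HS. Among membrane proteins, Slc6a2, the noradrenaline transporter, had 0.823 to 2.13 CPM (median 1.68) in 2% HS and 12.2 to 17.6 CPM (median 13) in SD (log2 fold change 3.12, SE 0.14, adjusted p = 2.6e-23). Oxtr, the oxytocin receptor, had 1.39 to 2.07 CPM (median 1.76) in 2% HS and 9.77 to 14.5 CPM (median 11.6) in SD (log2 fold change 2.75, SE 0.12, adjusted p = 9.1e-24). Aplnr, the apelin receptor, and Ly6d, a surface protein anchored by a lipid, rose by 2.76 and 3.06 on the log2 scale from medians below 1 CPM. The progesterone receptor Pgr (2.27), Enpp2, which encodes the enzyme autotaxin that makes lysophosphatidic acid (2.25), and Fam198a, a Golgi kinase-like protein (2.62), completed the 10. The largest adjusted p among the 10 was 5.9e-13.

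The decreases of the other 10 were smaller on the log2 scale than these increases. Car12 (ENSMUSG00000032373, chr9:66713686-66766845), a carbonic anhydrase of the cell surface, had 11.5 to 16 CPM (median 13.3) in 2% HS and 2.66 to 4.52 CPM (median 3.18) in SD (log2 fold change -2.02, SE 0.16, adjusted p = 6.6e-14). Slc2a4 (ENSMUSG00000018566, chr11:69942539-69948188) encodes GLUT4, the insulin-responsive glucose transporter of muscle and fat, and had 8.50 to 10.9 CPM (median 9.22) in 2% HS and 1.44 to 3.32 CPM (median 2.56) in SD (log2 fold change -1.93, SE 0.15, adjusted p = 2.3e-14). The groups lay far apart in both. Ero1l (ENSMUSG00000021831, chr14:45283087-45318771) encodes the oxidase that drives disulfide bond formation in the endoplasmic reticulum, and had 119 to 176 CPM (median 139) in 2% HS and 23.5 to 60.8 CPM (median 41.8) in SD (log2 fold change -1.75, SE 0.18, adjusted p = 1.6e-08). It was the most abundant of the 10 genes. Edn1, the vasoconstrictor peptide endothelin 1, had 3.69 to 7.28 CPM (median 4.82) in 2% HS and 0.765 to 2.28 CPM (median 1.42) in SD (log2 fold change -1.81, SE 0.25, adjusted p = 2.8e-07). Nmrk2, a muscle kinase that makes NAD from nicotinamide riboside, fell by 1.73 on the log2 scale, the potassium channel gene Kcnh1 by 1.68 and Slc5a5, the sodium-iodide symporter, by 1.67. Kcnh1 overlaps Hhat on the other strand, and the strand setting of the counting is not given in the sources used here. Fam107a, an actin-binding protein, fell by 1.79 and Plekha6, a pleckstrin homology domain protein, by 1.69. Vmn1r43 is annotated as a vomeronasal receptor, overlaps Vmn1r42 on the same strand and fell by 1.83, from 3.75 to 0.935 CPM.

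**Figure D1:**
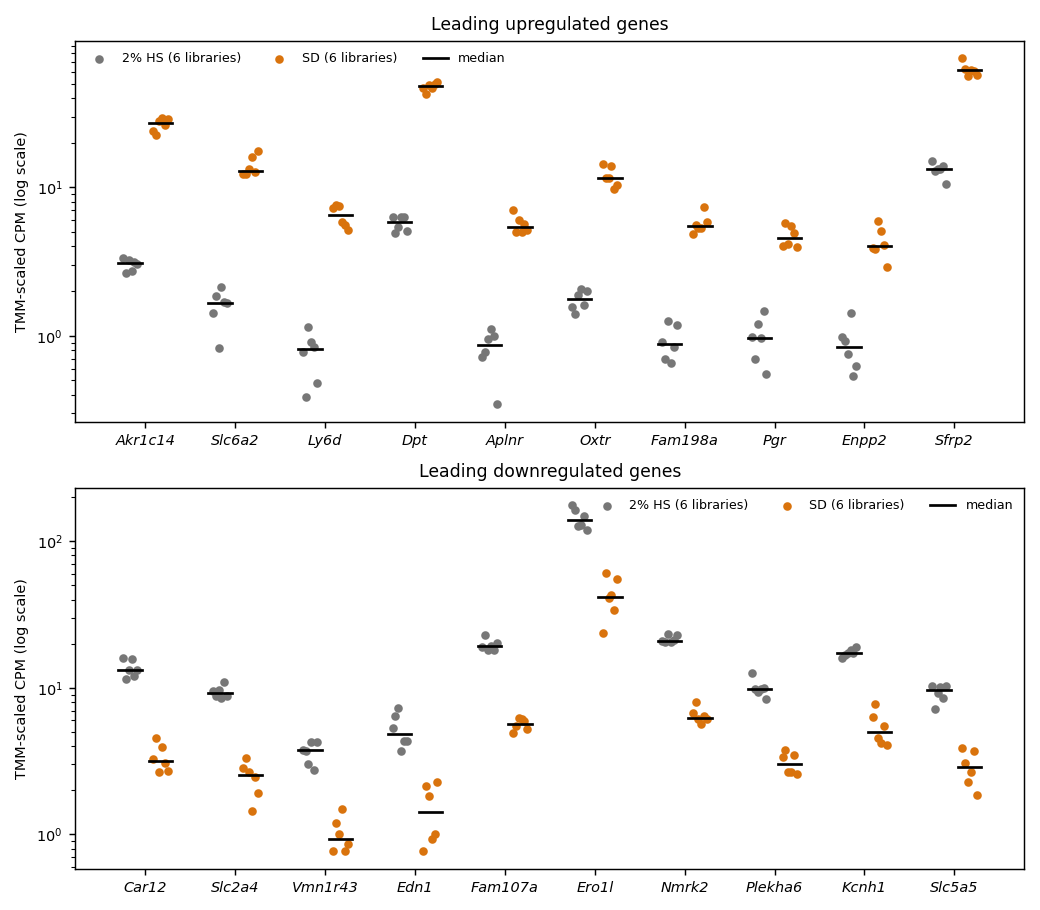
TMM-scaled CPM (log axis) of the 10 leading upregulated and 10 leading downregulated genes, with 1 point per library for 2% HS (6, grey) and SD (6, orange) and a bar at each median. The genes were chosen with groups that do not overlap. Akr1c14 lies between 2.63 and 3.33 CPM in 2% HS and between 22.6 and 29.6 CPM in SD.

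Genes of the extracellular matrix rose in large part. Collagens form the fibres and networks of the matrix, and 19 of the 32 tested rose and 3 fell (median log2 fold change 0.37), where 13.9% of all genes rose. Col3a1, a fibrillar collagen, had 2443 to 2659 CPM (median 2533) in 2% HS and 4322 to 4687 CPM (median 4488) in SD (log2 fold change 0.83, SE 0.03, adjusted p = 1.5e-25). Col12a1, which decorates collagen fibrils in tendon and muscle fascia, had 1234 to 1326 CPM (median 1288) in 2% HS and 2761 to 3114 CPM (median 2899.6) in SD (log2 fold change 1.19, SE 0.04, adjusted p = 3.3e-29). These were among the most abundant transcripts of the culture, and in both the groups did not overlap. Col6a3, a chain of the microfibrils that link basement membrane to interstitial matrix, had 297 to 328 CPM (median 304) in 2% HS and 658 to 701 CPM (median 690.2) in SD (log2 fold change 1.16, SE 0.03, adjusted p = 2.7e-30). The other chains of collagen VI moved with it, Col6a1 by 0.69 and Col6a2 by 0.87, as did both chains of collagen I (Col1a1 0.45, Col1a2 0.61). Col15a1 rose most (2.16), from 1.40 to 5.15 CPM. The exceptions were Col14a1 (8.91 to 2.95 CPM, -1.55), Col25a1 (-0.42) and Col4a5 (-0.32), and 10 members did not pass the test. Col4a5 lost its call without 2% HS replicate 1 or 3, or SD replicate 1, 2, 5 or 6 (adjusted p = 0.066 to 0.18).

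Of 40 matrix glycoproteins and proteoglycans, 24 rose and 10 fell (median 0.35). The members that rose included small leucine-rich proteoglycans, which bind collagen fibrils (Lum 2.10, Omd 1.34, Aspn 1.13, Fmod 1.11, Dcn 0.65), and the thrombospondin gene Thbs2, which had 72.8 to 92.9 CPM (median 78.5) in 2% HS and 311 to 359 CPM (median 334) in SD (log2 fold change 2.06, SE 0.05, adjusted p = 4.8e-32). Fibronectin (Fn1) rose by 0.67 and periostin (Postn) by 0.86. Several basement membrane genes went the other way. The nidogens Nid1 (-0.38) and Nid2 (-0.62), the laminin chains Lamb1 (-0.45), Lamc1 (-0.24), Lama5 (-0.29) and Lama2 (-0.14) fell, whereas Lamb2 rose by 0.20, both chains of collagen IV measured at high level rose (Col4a1 0.44, Col4a2 0.35), and Lama4 did not pass the test (0.11). Sparcl1, a secreted collagen-binding protein, fell most (13.9 to 5.48 CPM, -1.39).

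Enzymes that modify, cut and crosslink collagen mostly rose (13 of 24 up, 5 down, median 0.20). They included the prolyl hydroxylase subunit P4ha3 (11 to 23.5 CPM, 1.10), lysyl oxidase Lox (0.48), the collagen chaperone Serpinh1 (0.41) and the procollagen peptidase Adamts2 (0.51). The other prolyl hydroxylase subunits P4ha1 (-0.26) and P4ha2 (-0.49), which the hypoxia list also holds, fell, as did the crosslinking enzymes Tgm2 (-0.96) and Loxl2 (-0.50) and the procollagen peptidase Adamts14 (-0.48). Matrix proteases and their inhibitors were divided, with 7 up and 8 down of 22 (median -0.0092). Adamts5, which cleaves aggrecan and versican, had 149 to 165 CPM (median 157) in 2% HS and 70.2 to 86.8 CPM (median 77.7) in SD (log2 fold change -1.01, SE 0.05, adjusted p = 3.6e-23). Adam19 fell by 0.78, whereas Mmp16 (0.72) and Timp1 (0.45) rose.

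Fibroblast markers, which overlap these lists, rose as well. Of 10 listed, 8 were tested and all 8 rose (median 0.86), among them Pdgfra, the receptor that marks mesenchymal progenitors (9.22 to 16.5 CPM), Pi16 (1.02 to 2.04 CPM), Ly6a, which encodes SCA-1 (2.64 to 5.09 CPM), and Dcn (16.5 to 27.4 CPM). Their summed level was 2995 to 3306 CPM in 2% HS and 5258 to 5576 CPM in SD, of which Col3a1 and Col1a1 made up most. Col1a1, Col3a1, Dpt, Dcn and Lum are also members of the matrix lists above, so 5 of the 8 are no separate measurement, and Pdgfra, Pi16 and Ly6a are in neither. The other defining markers, Thy1 and Tcf21, had at most 2 counts in any library. The part of unfused cells in the matrix changes was not tested.

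Most of the listed genes that HIF activates when oxygen is low were lower in SD. Of 22 hypoxia targets, 19 fell and 1 rose (median -0.55), where 13.9% of all genes fell. Ndrg1, a stress-responsive gene, had 333 to 482 CPM (median 369) in 2% HS and 87.4 to 208 CPM (median 123) in SD (log2 fold change -1.55, SE 0.19, adjusted p = 3.5e-07). Adm, the vasodilator peptide adrenomedullin, had 20.1 to 28 CPM (median 22.5) in 2% HS and 6.23 to 10.4 CPM (median 8.08) in SD (log2 fold change -1.49, SE 0.12, adjusted p = 1.1e-12). Vegfa, the vascular growth factor, had 359.6 to 396 CPM (median 369) in 2% HS and 188 to 249 CPM (median 214) in SD (log2 fold change -0.79, SE 0.06, adjusted p = 1.6e-13). In these genes every SD library lay below every library in 2% HS. Car9, a tumour-associated carbonic anhydrase, fell by 1.33, the adenylate kinase Ak4 by 0.97, the mitophagy receptor Bnip3 by 0.70 and Pdk1, which inhibits pyruvate dehydrogenase, by 0.56. Hif1a itself fell by 0.17 (adjusted p = 0.0030), and of the prolyl hydroxylases that mark HIF for destruction Egln1 fell (-0.41) and Egln3 did not pass (-0.21, adjusted p = 0.060), though it passed without 2% HS replicate 6 or SD replicate 2 (adjusted p = 0.036 to 0.037). The exception was Stc1, the secreted glycoprotein stanniocalcin 1, which rose from 3.35 to 8.20 CPM (log2 fold change 1.38, SE 0.13, adjusted p = 5.2e-12). Epas1, which encodes HIF2A, was at -0.31 and did not pass the test (adjusted p = 0.12).

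Glycolysis followed the same direction. None of the 27 tested transporters and enzymes rose, 19 fell and 8 did not pass (median -0.25). After Slc2a4, the largest decreases were those of the glucose transporter Slc2a3 (-1.20), the phosphofructokinase activator Pfkfb3 (-0.99) and hexokinase 2 (Hk2), the insulin-responsive isoform of muscle, which had 154 to 177 CPM (median 162) in 2% HS and 85.1 to 111 CPM (median 95.8) in SD (log2 fold change -0.75, SE 0.07, adjusted p = 1.9e-09). Slc2a1, the basal glucose transporter, had 123 to 153 CPM (median 131) in 2% HS and 70.1 to 110.3 CPM (median 83.6) in SD (log2 fold change -0.64, SE 0.10, adjusted p = 7.3e-06). Enzymes of the main pathway fell by less, with Pfkl at -0.48, Eno1 at -0.40, Gapdh at -0.33, Aldoa at -0.25, Pgk1 at -0.24 and Ldha at -0.14. Pkm (-0.080, adjusted p = 0.093) and Hk1 (-0.058, adjusted p = 0.28) did not pass. Ldha lost its call without 2% HS replicate 1, 3 or 5, or SD replicate 4 or 5 (adjusted p = 0.051 to 0.093). The hypoxia and glycolysis lists share Slc2a1 and Pfkfb3.

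The HIF recognition core ACGTG was searched on both strands of the 250 bases upstream of 1 RefSeq start per gene (GRCm38.p6), the start nearest the gene's 5′ end in GENCODE M21 and within 1000 bases of it. It lay in 8 of the 15 hypoxia targets that fell and had a sequence, and in 18.3% of all 17364 genes with one. It also lay in 1 of 1 that did not pass, and it can overlap the last letters of the endoplasmic reticulum element shown for the chaperones. The windows of 3 targets that fell are shown with the core in capitals, Car9 at chr4:43506776-43507025, plus strand, Bnip3 at chr7:138909507-138909756, minus strand, and Slc2a1 at chr4:119108495-119108744, plus strand, all written 5′ to 3′ along the gene. A match on the other strand appears as its reverse complement. A match describes letters and not binding. The hypoxia list was assembled from genes known to be driven by HIF, so its share of matches describes the list and not the change in SD.
Car9: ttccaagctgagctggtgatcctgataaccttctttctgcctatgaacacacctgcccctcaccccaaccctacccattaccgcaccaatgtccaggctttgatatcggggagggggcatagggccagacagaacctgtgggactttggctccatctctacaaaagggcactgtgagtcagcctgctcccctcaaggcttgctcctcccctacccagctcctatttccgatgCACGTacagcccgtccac
Bnip3: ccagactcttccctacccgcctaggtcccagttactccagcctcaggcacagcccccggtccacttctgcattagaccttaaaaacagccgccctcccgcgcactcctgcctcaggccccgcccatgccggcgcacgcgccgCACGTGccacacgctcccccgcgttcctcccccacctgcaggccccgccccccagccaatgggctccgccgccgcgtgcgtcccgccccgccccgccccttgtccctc
Slc2a1: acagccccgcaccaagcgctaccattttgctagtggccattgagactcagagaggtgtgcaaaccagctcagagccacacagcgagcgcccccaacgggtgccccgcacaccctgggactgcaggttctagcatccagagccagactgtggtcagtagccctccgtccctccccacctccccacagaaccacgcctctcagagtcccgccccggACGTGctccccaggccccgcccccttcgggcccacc

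**Figure D2:**
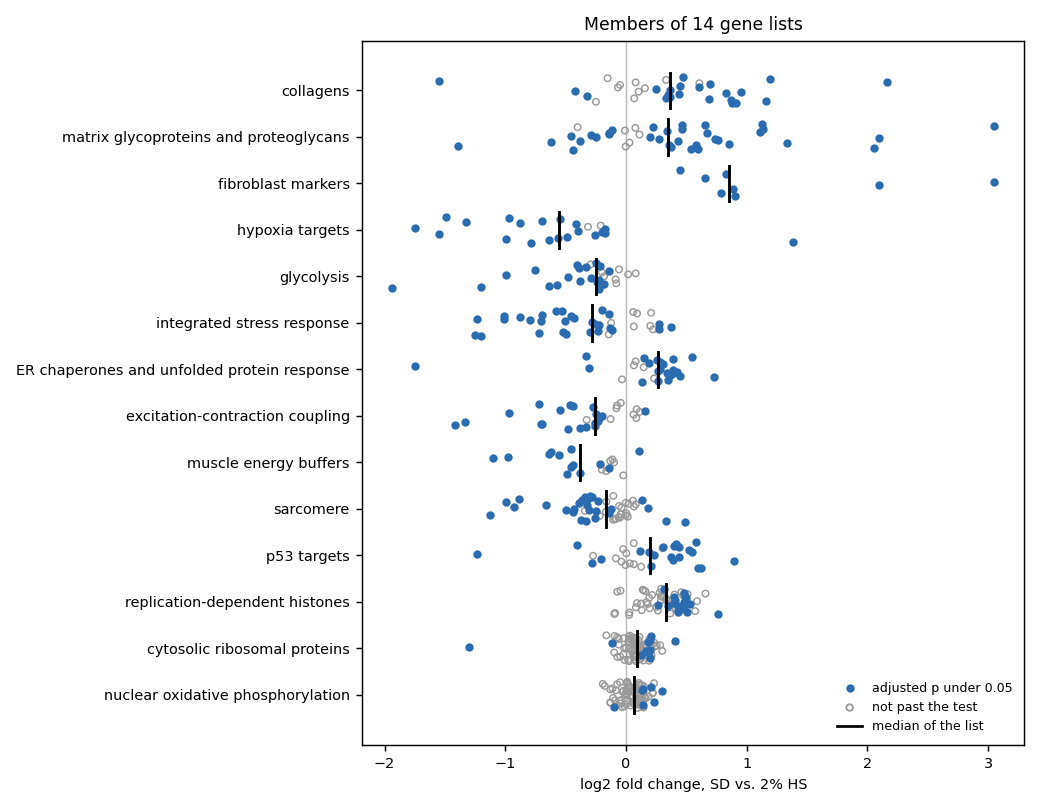
Log2 fold change (SD vs. 2% HS) of each tested member of 14 gene lists, 1 point per gene, filled where the adjusted p was under 0.05, with a bar at each list's median. Collagens and fibroblast markers lie mostly right of 0, hypoxia targets, glycolysis and the integrated stress response mostly left of it, and cytosolic ribosomal proteins close to 0.

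Stress genes moved in both directions, with those of the integrated stress response lower and those of protein folding in the endoplasmic reticulum higher. The integrated stress response acts through ATF4, which raises amino acid transporters and synthetic enzymes, and 26 of its 37 tested genes fell and 3 rose (median -0.28). Trib3, a pseudokinase induced by ATF4, had 16.6 to 22.4 CPM (median 18.5) in 2% HS and 4.16 to 13.5 CPM (median 7.74) in SD (log2 fold change -1.25, SE 0.23, adjusted p = 1.1e-04). Fgf21, a hormone that stressed muscle secretes, had 33.3 to 43.6 CPM (median 40.5) in 2% HS and 17 to 23 CPM (median 19.3) in SD (log2 fold change -1.01, SE 0.10, adjusted p = 3.2e-09). Asns, the asparagine synthetase, had 55 to 65.3 CPM (median 60.1) in 2% HS and 40.7 to 45.1 CPM (median 41.1) in SD (log2 fold change -0.53, SE 0.05, adjusted p = 1.5e-11). All 6 SD libraries were below the 2% HS libraries in these genes. Gdf15, a hormone of the TGF-beta family, fell from 5.73 to 2.20 CPM (-1.24), and Vldlr, a lipoprotein receptor, from 136 to 59.8 CPM (-1.20). Enzymes of cysteine, glutathione and one-carbon metabolism fell as well, Cth by 1.01, Chac1 by 0.69 and Mthfd2 by 0.71, as did the transporters Slc7a11 (-0.72) and Slc7a5 (-0.50). Atf4 transcript was at 253 to 277 CPM (median 268) in 2% HS and 270.3 to 294 CPM (median 277) in SD and did not pass the test (0.060, adjusted p = 0.20). The members that rose were Sesn3 (0.37), which FoxO also activates, Ppp1r15a (0.28), which returns eIF2 to its active state, and the amino acid transporter Slc1a4 (0.27). Aminoacyl-tRNA synthetases, several of which ATF4 activates, had 1 member up (Hars, 0.18) and 8 down of 20, and the largest decrease was that of Iars (-0.18, median of the list -0.085). Hars lost its call without SD replicate 1 or 3 (adjusted p = 0.053 to 0.071).

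Chaperones and folding enzymes of the endoplasmic reticulum rose, 19 of 27 tested, and 3 fell (median 0.27). Calr, the calcium-binding chaperone calreticulin, had 579 to 591 CPM (median 584) in 2% HS and 791 to 919 CPM (median 856) in SD (log2 fold change 0.55, SE 0.04, adjusted p = 7.0e-16). Hspa5, which encodes the main chaperone BiP, had 336 to 391 CPM (median 353) in 2% HS and 426 to 511 CPM (median 464) in SD (log2 fold change 0.39, SE 0.04, adjusted p = 7.5e-11). The groups did not overlap for either gene. The disulfide isomerases Pdia6 (0.45), Pdia3 (0.38) and Pdia4 (0.36), the secreted stress factors Manf (0.42) and Creld2 (0.39), and Hsp90b1 (0.28) rose, and Sdf2l1 rose most (0.73). Xbp1 rose by 0.13, and it lost its call without SD replicate 2 or 4 (adjusted p = 0.052 to 0.058). Ero1l, which the hypoxia list also holds, Atf6 (-0.33) and Herpud1 (-0.31) fell. Cytosolic chaperones had 4 up and 1 down of 30 (median 0.012), 16.7% of members against 27.8% of all genes. Bag3, which directs damaged filamin to autophagy, rose by 0.29 and Hspb6, a small heat shock protein of muscle, fell by 0.39. Hspa1b rose by 0.40, and its near-identical copy Hspa1a did not pass (0.045), so reads may have been divided between them.

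The endoplasmic reticulum stress element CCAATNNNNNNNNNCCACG, on either strand of the 250 bases upstream, lay in 8 of the 17 chaperone genes that rose and had a sequence, in 0 of 1 that fell, in 0 of 4 that did not pass, and in 28 of 17364 genes in all (0.161%). It is shown in capitals for Hspa5 (chr2:34771840-34772089, plus strand), Calr (chr8:84846932-84847181, minus strand) and Hsp90b1 (chr10:86705445-86705694, minus strand). The list was assembled from known genes of the unfolded protein response, so its share of matches describes the list and not the change in SD. The genes that fell or did not pass were too few to compare with those that rose.
Hspa5: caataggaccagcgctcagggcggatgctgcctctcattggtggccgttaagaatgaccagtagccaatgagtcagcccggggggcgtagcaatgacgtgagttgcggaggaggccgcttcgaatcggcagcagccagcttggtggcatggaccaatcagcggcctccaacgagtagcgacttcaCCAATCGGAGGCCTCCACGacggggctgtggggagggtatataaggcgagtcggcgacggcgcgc
Calr: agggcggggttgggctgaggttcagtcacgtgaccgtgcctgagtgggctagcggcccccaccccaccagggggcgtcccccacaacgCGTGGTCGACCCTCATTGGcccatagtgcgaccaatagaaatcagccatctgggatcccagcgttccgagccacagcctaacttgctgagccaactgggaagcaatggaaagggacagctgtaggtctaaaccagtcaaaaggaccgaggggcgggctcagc
Hsp90b1: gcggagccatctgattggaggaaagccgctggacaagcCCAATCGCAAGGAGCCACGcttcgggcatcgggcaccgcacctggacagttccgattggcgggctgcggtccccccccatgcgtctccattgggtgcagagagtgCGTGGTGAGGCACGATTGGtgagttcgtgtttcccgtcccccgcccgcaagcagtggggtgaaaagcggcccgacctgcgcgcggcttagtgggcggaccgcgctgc

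The amino acid response sequence TGATGNAA, which ATF4 binds with a C/EBP partner, lay in 4 of the 18 integrated stress response genes that fell and had a sequence, in 0 of 2 that rose, in 1 of 7 that did not pass, and in 2.9% of all genes. It is in capitals upstream of Asns (chr6:7693210-7693459, minus strand), Chac1 (chr2:119350992-119351241, plus strand) and Fgf21 (chr7:45615491-45615740, minus strand). The list was assembled from genes known to be driven by ATF4 and CHOP, so its share of matches describes the list and not the change in SD. All sequences are RefSeq's for GRCm38.p6.
Asns: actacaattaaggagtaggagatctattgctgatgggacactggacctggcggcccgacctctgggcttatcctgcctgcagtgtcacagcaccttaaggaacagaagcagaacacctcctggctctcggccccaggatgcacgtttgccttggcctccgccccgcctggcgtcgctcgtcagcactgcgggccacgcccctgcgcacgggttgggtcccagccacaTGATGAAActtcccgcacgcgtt
Chac1: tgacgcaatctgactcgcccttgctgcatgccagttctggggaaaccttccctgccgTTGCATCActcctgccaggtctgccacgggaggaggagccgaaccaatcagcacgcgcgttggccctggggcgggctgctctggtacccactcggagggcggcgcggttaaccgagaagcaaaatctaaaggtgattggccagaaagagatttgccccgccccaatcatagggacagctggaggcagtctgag
Fgf21: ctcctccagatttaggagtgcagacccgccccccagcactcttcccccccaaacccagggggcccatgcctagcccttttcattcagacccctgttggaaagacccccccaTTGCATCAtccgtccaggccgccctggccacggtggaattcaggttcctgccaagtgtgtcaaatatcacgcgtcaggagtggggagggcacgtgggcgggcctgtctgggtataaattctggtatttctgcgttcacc

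Muscle transcripts were lower in part. Genes of calcium handling and energy buffering fell most often, and embryonic myosin, skeletal actin and myogenin did not pass the test. Of 30 genes of excitation-contraction coupling, 19 fell and 1 rose (median -0.26). Atp2a1, the fast-muscle calcium pump SERCA1, had 1361 to 1526 CPM (median 1441) in 2% HS and 801 to 941 CPM (median 875) in SD (log2 fold change -0.72, SE 0.05, adjusted p = 2.2e-17). Its peptide inhibitor sarcolipin (Sln) fell from 21.7 to 7.61 CPM (-1.42), the calcium buffer parvalbumin (Pvalb) from 23.5 to 8.90 CPM (-1.34) and the chloride channel Clcn1 from 6.52 to 3.31 CPM (-0.97). The calcium release channel Ryr1 fell by 0.26, its sensor Cacna1s by 0.44, and Casq2, the slow form of calsequestrin, rose by 0.15.

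Energy buffering genes had 12 of 19 down and 1 up (median -0.38). Ckm, the muscle creatine kinase, had 289 to 327 CPM (median 309) in 2% HS and 139 to 180.0 CPM (median 152) in SD (log2 fold change -0.98, SE 0.09, adjusted p = 6.2e-10). The mitochondrial isoform Ckmt2 fell by 1.10, the AMP deaminases Ampd1 by 0.62 and Ampd3 by 0.64, and adenylate kinase Ak1 rose by 0.11. In the sarcomere, 24 of 50 fell and 4 rose (median -0.16). Decreases were largest in the thin-filament cap Tmod4 (-1.12), the fast myosin-binding protein Mybpc2 (-0.997), the slow light chain Myl2 (-0.93) and Cmya5 (-0.89), and the giant proteins titin (Ttn, -0.33) and nebulin (Neb, -0.44) fell too. Among myosin heavy chains, Myh7 (-0.66), Myh1 (-0.39) and Myh4 (-0.32) fell, while Myh8 (-0.058) and Myh2 (0.021) did not pass. Embryonic Myh3 was at 989 to 1082 CPM (median 1050.2) in 2% HS and 1003 to 1190.4 CPM (median 1114) in SD (0.081, adjusted p = 0.53). Acta1, skeletal alpha-actin, was at 3323 to 3811 CPM (median 3502) in 2% HS and 2813 to 3847 CPM (median 3272) in SD (-0.10, adjusted p = 0.22). The genes that rose were Xirp2 (0.49) and Xirp1 (0.34), actin-binding proteins of the intercalated disc and of muscle repair, Mylpf (0.18) and desmin (Des, 0.13). Ak1 lost its call without 2% HS replicate 2, 4 or 6, or SD replicate 1, 2 or 5 (adjusted p = 0.0504 to 0.071), and Mylpf lost its call without 2% HS replicate 1, 2, 4 or 6, or SD replicate 1 or 3 (adjusted p = 0.054 to 0.12). Acta1 passed without SD replicate 1 (adjusted p = 0.045).

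Of 32 myogenic factors and fusion genes, 15 fell and 1 rose (median -0.10). Myf6 fell by 0.73, Myod1 by 0.28 and the fusion peptide Mymx by 0.39. Myog, the gene of myogenin, was at 994 to 1067 CPM (median 1034) in 2% HS and 1003 to 1156 CPM (median 1052) in SD (0.051, adjusted p = 0.31). Pax7, which marks satellite and reserve cells, had 183 to 196 CPM (median 191) in 2% HS and 139 to 159 CPM (median 144) in SD (log2 fold change -0.37, SE 0.04, adjusted p = 1.2e-10). Notch3, another reserve cell marker, fell by 0.98, and Cd34 rose by 0.43. Acetylcholine receptor and synapse genes had 9 down and 2 up of 20 (median -0.14), with the collagen tail of acetylcholinesterase, Colq, at -0.36 and the growth factor Nrg1 at 0.58.

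The ubiquitin ligases of muscle atrophy changed little. Fbxo32, which encodes atrogin-1, had 133 to 145 CPM (median 139) in 2% HS and 120.3 to 139 CPM (median 128) in SD (log2 fold change -0.13, SE 0.04, adjusted p = 0.029), and Trim63, which encodes MuRF1, had 37.5 to 42.8 CPM (median 41.2) in 2% HS and 39.6 to 48 CPM (median 46) in SD (log2 fold change 0.15, SE 0.05, adjusted p = 0.021). The groups overlapped in both. Fbxo32 lost its call without 2% HS replicate 1 or 2, or SD replicate 1 or 6 (adjusted p = 0.066 to 0.074), and Trim63 lost its call without 2% HS replicate 2 or 6, or SD replicate 3 (adjusted p = 0.056 to 0.065). Foxo1 (-0.022, adjusted p = 0.71) and Foxo3 (0.082, adjusted p = 0.081), which activate them, did not pass, although Foxo3 did so without SD replicate 3 or 4 (adjusted p = 0.033 to 0.045), and of 19 genes in the list 1 rose and 3 fell (median -0.022), or 5 in the model without the sixth MET+LEU library. In the main model the list changed in 21.1% of members, where 27.8% of all genes changed. Its largest change was that of Klf15, a factor that glucocorticoids induce, from 2.25 to 0.495 CPM (log2 fold change -2.03, SE 0.30, adjusted p = 5.3e-07). Asb2, a ligase that limits muscle mass, fell by 0.53. Mstn, the gene of myostatin, was under the filter, with 0 counts in 2% HS and at most 3 in an SD library. The proteasome had 13 of 39 subunit genes up and 0 down (median 0.087), with Psmb6 at 0.28 the largest change. It changed in 33.3% of members, where 27.8% of all genes changed and 13.9% rose. The number of subunit genes up was 7 without SD replicate 3 and 8 without 2% HS replicate 6 or SD replicate 1. At an adjusted p under 0.01 it was 6. Autophagy had 5 up and 5 down of 34 (median 0.012), 29.4% of members against 27.8% of all genes, and the number up was 3 without SD replicate 1. Its initiating kinase Ulk1 had 164 to 175 CPM (median 168) in 2% HS and 121 to 151 CPM (median 130.4) in SD (log2 fold change -0.35, SE 0.05, adjusted p = 2.2e-08). Lysosome genes had 14 up and 8 down of 44 (median 0.030), and the number down was 5 without SD replicate 6. Ctsc, a dipeptide-cleaving cathepsin, changed most, from 11.4 to 5.31 CPM (-1.22).

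Targets of p53 rose more often than they fell. Of 32 tested, 17 rose and 4 fell (median 0.20). Cdkn1a, which encodes the cell cycle inhibitor p21, had 1643 to 1857 CPM (median 1773) in 2% HS and 2211 to 2696 CPM (median 2339) in SD (log2 fold change 0.44, SE 0.04, adjusted p = 5.1e-12). Zmat3, an RNA-binding protein under p53, had 83 to 90.8 CPM (median 87.4) in 2% HS and 126 to 151 CPM (median 130.4) in SD (log2 fold change 0.62, SE 0.05, adjusted p = 1.2e-15). In both genes the groups did not overlap. Psrc1 (0.90), Trp53inp1 (0.59), the nuclease Aen (0.58), the death receptors Fas (0.54) and Eda2r (0.53), Bax (0.41) and Mdm2, the ligase that degrades p53 (0.23), rose as well. Gdf15, which the integrated stress list shares along with Sesn2, Rrm2b (-0.28) and the BH3-only genes Bbc3 (-0.41) and Pmaip1 (-0.21) fell. Trp53 was at 64.4 to 76.1 CPM (median 70.8) in 2% HS and 69.2 to 82.3 CPM (median 79.5) in SD (0.13, adjusted p = 0.057), but it passed without 2% HS replicate 3 or 6, or SD replicate 4 or 6 (adjusted p = 0.018 to 0.041). Of 8 cell cycle inhibitors tested, Cdkn1a and Cdkn2c (0.32) rose and Rb1 (-0.38) and Cdkn1b (-0.20) fell (median -0.023).

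Several genes of DNA replication rose, and most of the mitotic genes named here did not pass the test. Among 50 proliferation genes 15 rose and 1 fell (median 0.14). The replication licensing factors Cdc6 (1.97 to 3.44 CPM, 0.75) and Mcm5 (9.23 to 12.7 CPM, 0.44), Gins2 (0.74), Uhrf1 (0.44) and the polymerase clamp Pcna (0.19) were among them, with Mcm2, Mcm4 and Mcm6 at 0.24 to 0.33. Mki67 was at 72.5 to 86.3 CPM (median 75.2) in 2% HS and 63.2 to 98.8 CPM (median 78.7) in SD (0.049, adjusted p = 0.79), and Cdk1 (0.15), Ccnb1 and Plk1 did not pass. Aurkb, a kinase of the chromosome passenger complex, rose by 0.39. The number that rose was 9 without SD replicate 6, and Gins2 lost its call without SD replicate 3 (adjusted p = 0.057). Replication-dependent histones, whose transcripts accumulate in S phase, had 18 of 56 up and 0 down (32.1% of members, median 0.33). Hist1h3g for example went from 6.90 to 10.2 CPM (0.53). Histone genes of this kind are short and alike in sequence, so single members are uncertain. Their transcripts lack a poly(A) tail, which libraries made by removing ribosomal RNA do not require.

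Among secreted signals of inflammation, 10 of 22 chemokines and cytokines rose and 2 fell (median 0.36), and the number that fell was 4 without SD replicate 1. Csf1, the growth factor of macrophages, had 119 to 135 CPM (median 128) in 2% HS and 185 to 224 CPM (median 204) in SD (log2 fold change 0.68, SE 0.04, adjusted p = 2.1e-18). Cxcl12, which attracts progenitor cells, had 25.9 to 31.7 CPM (median 29.6) in 2% HS and 34.1 to 40.8 CPM (median 38.5) in SD (log2 fold change 0.38, SE 0.06, adjusted p = 4.7e-07). Most others were at a few CPM or less, such as Il16 (0.695 to 2.23 CPM, 1.58), Cxcl16 (1.15), Cxcl14 (0.97) and Il34 (0.93). Cxcl1 stayed under 1 CPM in every library, with medians of 0.293 CPM in 2% HS and 0.809 CPM in SD. The eosinophil attractant Ccl11 fell from 3.70 to 1.64 CPM (-1.38), and Il6 did not pass the test (0.45, adjusted p = 0.15). NF-kB pathway genes had 10 up and 2 down of 25 (median 0.075). Its inhibitor and target Nfkbia had 13.6 to 17 CPM (median 15.6) in 2% HS and 18.7 to 26.3 CPM (median 23.3) in SD (log2 fold change 0.60, SE 0.07, adjusted p = 4.9e-09), and Tnfaip2 fell by 0.51. Antigen presentation genes had 6 up and 0 down of 10 (median 0.31), with the peptide transporter subunit Tap1 from 1.35 to 2.95 CPM (1.11) and the class I genes H2-D1 (0.34) and H2-K1 (0.22), which are alike in sequence.

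Of 12 complement genes 5 rose and 2 fell (median 0.10), and the number that fell was 4 without 2% HS replicate 6. The proteases that start the classical pathway, C1s1 (0.99) and C1ra (0.67), rose. Interferon response genes had 3 up and 6 down of 28 (median 0.040), 32.1% of members against 27.8% of all genes. Rsad2 (1.82), Ifit1 (1.34) and Bst2 (0.77) rose from low levels, Zbp1 (-1.03) and Oasl2 (-0.97) fell, and Isg15 (0.56) did not pass.

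Genes that serum induces rapidly were measured 4 days after its removal, and they were not lower as a group. Of 25 immediate early genes 9 rose and 5 fell (median 0.11). Klf10, which TGF-beta also induces, had 85.7 to 98.5 CPM (median 94.5) in 2% HS and 135 to 153 CPM (median 140.0) in SD (log2 fold change 0.60, SE 0.04, adjusted p = 2.2e-17). Fos had 9.98 to 13.2 CPM (median 11.5) in 2% HS and 11.2 to 15.4 CPM (median 14.5) in SD (log2 fold change 0.28, SE 0.09, adjusted p = 0.020), Egr1 was at 0.11 (adjusted p = 0.032) and Jun at 0.37, with Nr4a1 (-0.25) and Nr4a3 (-0.38) among those that fell. Fos lost its call without 2% HS replicate 2 or SD replicate 1 (adjusted p = 0.055 to 0.058), Egr1 lost its call without 2% HS replicate 1 or 5, or SD replicate 1 or 5 (adjusted p = 0.077 to 0.11), and the number of genes that fell was 3 without 2% HS replicate 1, or SD replicate 1, 2, 4 or 5. Myc did not pass (0.10, adjusted p = 0.31). Feedback inhibitors and targets of ERK had 3 up (Etv1 0.74, Spry4 0.48, Dusp6 0.29) and 0 down of 14 (median 0.070). They changed in 21.4% of members, where 27.8% of all genes changed.

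Targets of the serum response factor SRF and its actin-sensing cofactors fell, 10 of 19, and 1 rose (median -0.13). Srf had 71.2 to 76.2 CPM (median 72.7) in 2% HS and 57.7 to 71.7 CPM (median 62.5) in SD (log2 fold change -0.19, SE 0.05, adjusted p = 0.0019), Acta2, smooth muscle actin, had 2449 to 2665 CPM (median 2559) in 2% HS and 1800.2 to 2337 CPM (median 2044) in SD (log2 fold change -0.33, SE 0.04, adjusted p = 5.9e-09), and Myl9, a regulatory myosin light chain, fell by 0.45 and vinculin (Vcl) by 0.22. Tagln did not pass (0.088). Smooth muscle markers, which share Acta2, Cnn1 and Tagln with this list, had 4 of 6 down and desmin up, and Myh11 stayed under the filter. YAP targets were divided, with 7 up and 5 down of 16 (median 0.13). Ccn2, the connective tissue growth factor, had 98 to 122 CPM (median 113) in 2% HS and 45.5 to 57.7 CPM (median 53.5) in SD (log2 fold change -1.07, SE 0.06, adjusted p = 1.0e-17), whereas its paralog Ccn1 rose by 0.47, Ankrd1 by 0.37 and tissue factor (F3) by 1.05. Of 14 BMP and TGF-beta targets 4 rose and 7 fell (median -0.072). Id1 rose by 0.33, Id2 fell by 0.25 and Id3 did not pass (0.093, adjusted p = 0.59), the inhibitory Smad gene Smad6 rose by 0.32, and the BMP antagonist Grem1 fell by 0.67.

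In the IGF axis 6 of 15 genes rose and 4 fell (median -0.029). Igfbp5, an IGF-binding protein abundant in myotubes, had 3975 to 4219.7 CPM (median 4098) in 2% HS and 2304 to 2684 CPM (median 2459) in SD (log2 fold change -0.74, SE 0.04, adjusted p = 4.7e-19). Igf1 had 226 to 264 CPM (median 244) in 2% HS and 279 to 339 CPM (median 306) in SD (log2 fold change 0.33, SE 0.04, adjusted p = 1.3e-08). The groups did not overlap in either gene, and they moved in opposite directions. Igfbp4 fell by 0.60, Igfbp6 rose by 0.56, and Insr (-0.051) and Irs2 (-0.029) did not pass. Igf2 rose by 0.22, and it lost its call without 2% HS replicate 4 or 6, or SD replicate 3 or 6 (adjusted p = 0.060 to 0.087). Growth factor receptors had 6 up and 7 down of 22 (median -0.059), with Fgfr2 at 0.91 and the more abundant Fgfr1 at -0.39 (290.0 to 223 CPM). Notch pathway genes had 3 up and 6 down of 17 (median -0.035), and Lfng rose most (0.76). The receptor gene Notch3 had 255 to 301 CPM (median 281) in 2% HS and 123 to 167 CPM (median 139) in SD (log2 fold change -0.98, SE 0.07, adjusted p = 1.8e-11), and the target genes Heyl (-0.68), Hey1 (-0.56) and Hes1 (-0.22) fell with it, while Notch1 and Notch2 did not pass. In the Wnt pathway 10 rose and 8 fell of 29 (median 0.022), and the largest changes were in secreted inhibitors. Dkk2 rose from 0.396 to 3.80 CPM (2.87), Sfrp1 by 0.82 and Dkk3 by 0.79 beside Sfrp2, and Sfrp4 fell from 25.8 to 8.69 CPM (-1.57). Axin2, a target of the pathway, fell by 0.40.

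**Figure D3:**
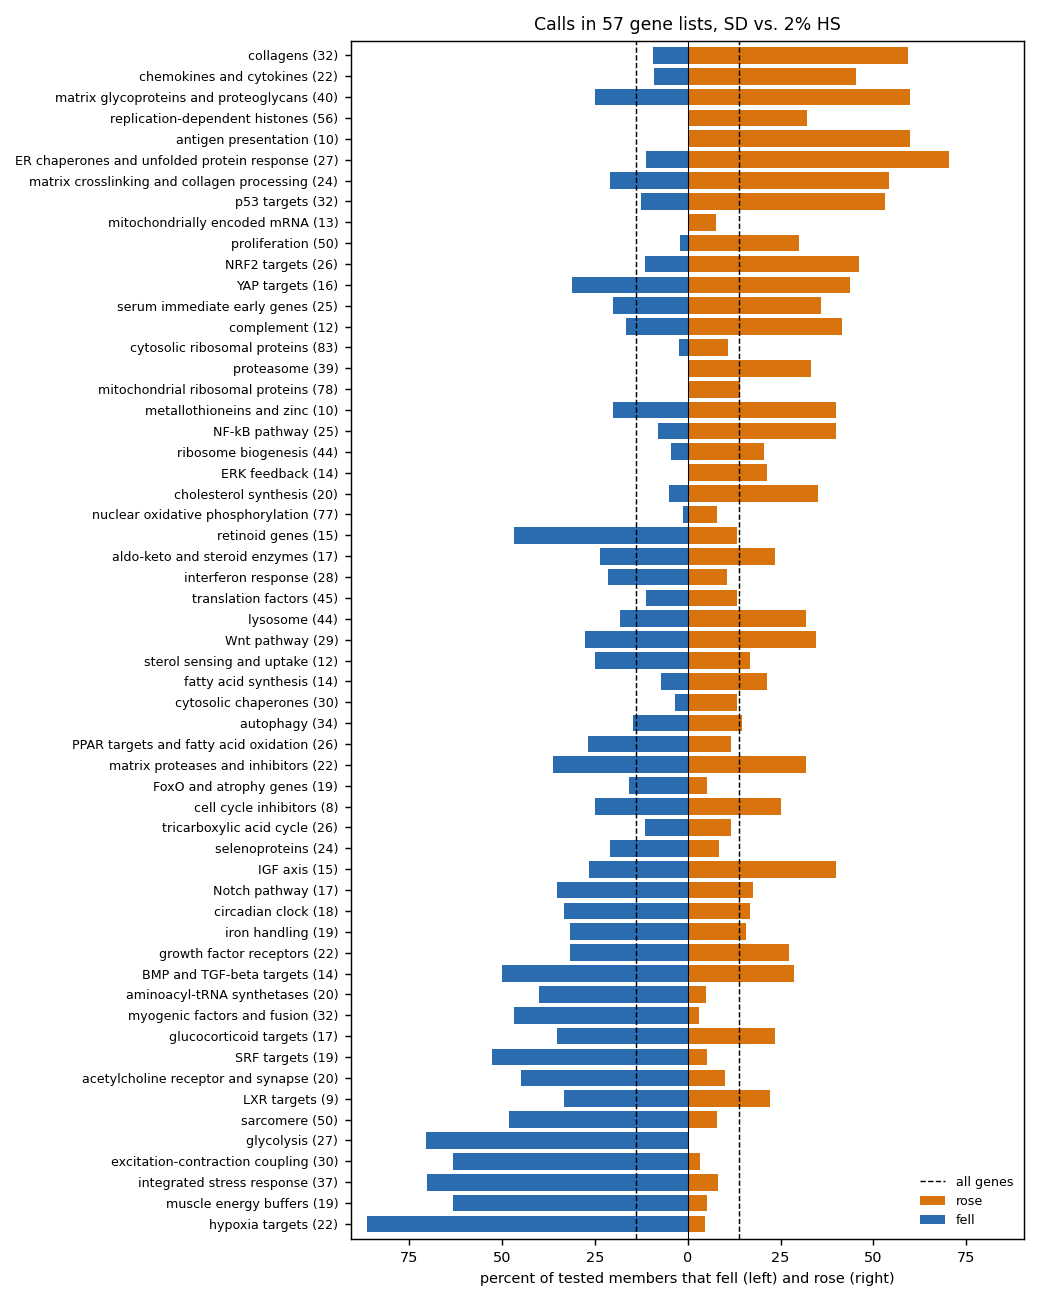
Percent of tested members that rose (right) and fell (left) at an adjusted p under 0.05 in each of the 57 gene lists, with the number tested in brackets, ordered by median log2 fold change. Dashed lines mark the 13.9% of all 15907 genes that rose and the 13.9% that fell.

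Sterol genes changed by small amounts. Of 20 enzymes of cholesterol synthesis 7 rose and 1 fell (median 0.067). Hmgcs1, which makes the precursor of mevalonate, had 198 to 218 CPM (median 201) in 2% HS and 224 to 279 CPM (median 248) in SD (log2 fold change 0.29, SE 0.04, adjusted p = 9.6e-07). The sterol regulators Srebf1 (0.10) and Srebf2 (-0.046) did not pass. Of 12 genes of sterol sensing and uptake 2 rose, Insig1 by 0.18, and 3 fell (median 0.020), and the number that rose was 1 without SD replicate 1. Fatty acid synthesis had 3 up and 1 down of 14 (median 0.017), 28.6% of members against 27.8% of all genes. Fasn (0.0065) and Scd1 (-0.037) did not pass the test. The number up was 1 without 2% HS replicate 4, or SD replicate 1 or 3. LXR targets had 2 up and 3 down of 9 (median -0.16). The sterol exporter Abcg1 had 9.91 to 13 CPM (median 10.8) in 2% HS and 18.5 to 22.9 CPM (median 19.5) in SD (log2 fold change 0.86, SE 0.08, adjusted p = 8.1e-13) and Apoe rose by 0.85, but the exporter Abca1 fell by 0.22.

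PPAR targets and genes of fatty acid oxidation had 3 up and 7 down of 26 (median 0.0020), and some of the changes were large. Angptl4, a lipoprotein lipase inhibitor that fatty acids induce, had 9.62 to 14 CPM (median 11.2) in 2% HS and 35.7 to 42.6 CPM (median 40.02) in SD (log2 fold change 1.83, SE 0.07, adjusted p = 1.5e-25). Cpt1a, which admits fatty acids to mitochondria, had 41 to 45.9 CPM (median 42.6) in 2% HS and 79.8 to 96.5 CPM (median 83) in SD (log2 fold change 0.98, SE 0.05, adjusted p = 6.3e-23). Both were higher in 6 of 6 SD libraries than in any 2% HS library. Other targets went down, Pdk4 by 0.49, Ucp3 by 1.31 and the fatty acid transporter Cd36 by 0.56, as did the coactivator Ppargc1a, which drives mitochondrial genes (8.59 to 3.96 CPM, -1.14). Enzymes of the oxidation cycle such as Acadm (0.015), Hadha (0.019) and Acadvl (0.051) did not pass.

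Retinoid genes included 2 that rose and 7 that fell of 15 (median 0.054). The carrier protein Crabp2 (-0.64), the retinol importer Stra6 (-0.79), Dhrs3, which returns retinal to retinol, and the retinoic acid hydroxylases Cyp26a1 (-0.88) and Cyp26b1 (-0.79), many of them induced by retinoic acid itself, fell. Dhrs3 had 12.5 to 15.8 CPM (median 14.7) in 2% HS and 5.38 to 6.77 CPM (median 5.99) in SD (log2 fold change -1.26, SE 0.10, adjusted p = 9.4e-14). The synthetic enzyme Aldh1a3 rose by 0.83, and the receptors Rara (0.054) and Rarg (0.12) did not pass. Stra6 lost its call without 2% HS replicate 3 (adjusted p = 0.0502). Glucocorticoid targets had 4 up and 6 down of 17 (median -0.11). Angptl4, which the PPAR list also holds, was the member that rose most (1.83). Klf9 had 79.7 to 97.8 CPM (median 94.1) in 2% HS and 40.4 to 48.9 CPM (median 43) in SD (log2 fold change -1.08, SE 0.06, adjusted p = 7.3e-20), Klf15 and Tsc22d3 (-0.18) fell too, and Fkbp5 was at 19.4 to 22.3 CPM (median 20.9) in 2% HS and 19.4 to 25.8 CPM (median 21.3) in SD (0.059, adjusted p = 0.52). Hsd11b1, which regenerates active glucocorticoid, had 15.4 to 20.6 CPM (median 17.1) in 2% HS and 31.9 to 39.5 CPM (median 35.2) in SD (log2 fold change 0.97, SE 0.07, adjusted p = 7.4e-17). Aldo-keto and steroid enzymes, which include it and Akr1c14, had 4 up and 4 down of 17 (median 0.046), and Akr1b3, aldose reductase, fell by 0.38. Akr1c14 has close paralogs, and of these Akr1c12 (-0.0091) and Akr1c13 (-0.14) did not pass.

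Genes that handle selenium, iron and zinc moved in particular members. Of 24 selenoprotein genes 2 rose and 5 fell (median -0.029), 29.2% of members against 27.8% of all genes. Gpx3, the secreted glutathione peroxidase, had 424 to 481 CPM (median 453) in 2% HS and 147 to 215 CPM (median 189) in SD (log2 fold change -1.28, SE 0.06, adjusted p = 1.9e-16). Selenop, the selenium carrier, fell by 0.60, Selenow by 0.37 and Gpx1 by 0.32, whereas Gpx4 (-0.051) and Txnrd1 (0.018) did not pass and Selenos, which is also a gene of the endoplasmic reticulum list, rose by 0.35. Of 19 iron genes 3 rose and 6 fell (median -0.055). Slc40a1, the iron exporter ferroportin, had 43.9 to 48.7 CPM (median 46.1) in 2% HS and 15.7 to 22.1 CPM (median 17.5) in SD (log2 fold change -1.35, SE 0.07, adjusted p = 3.6e-21). Cp, the ferroxidase ceruloplasmin, fell by 0.93, and the transferrin receptor Tfrc rose by 0.18. Metallothioneins and zinc transporters had 4 up and 2 down of 10 (median 0.075). Mt1 had 185 to 219 CPM (median 214) in 2% HS and 112 to 144 CPM (median 129) in SD (log2 fold change -0.69, SE 0.09, adjusted p = 8.9e-07), Mt2 fell by 0.76, and the number that rose was 2 without 2% HS replicate 1, or SD replicate 2 or 6.

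Targets of the antioxidant regulator NRF2 had 12 up and 3 down of 26 (median 0.13). The glutathione transferases Gstm1 (0.47) and Gstm2 (0.58), which are alike in sequence, and G6pdx, the entry enzyme of the pentose phosphate pathway (0.39), rose, and Hmox1 (-0.24), Nfe2l2 (-0.24) and Slc7a11 fell. Circadian clock genes had 3 up and 6 down of 18 (median -0.049), with Arntl, which encodes BMAL1, at 26.1 to 34.7 CPM (0.41), Dbp at -0.28 and Per2 (-0.038) and Cry1 (-0.060) not past the test.

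Cytosolic ribosomal proteins, mitochondrial ribosomal proteins and nuclear genes of oxidative phosphorylation changed in 13.3%, 14.1% and 9.1% of their members, where 27.8% of all genes changed, and the counts moved when single libraries were left out. Of 83 cytosolic ribosomal protein genes 9 rose and 2 fell (median 0.092), and the number that rose was 4 without SD replicate 3, 5 without 2% HS replicate 5, or SD replicate 1 or 6, 14 without SD replicate 2, and 25 without SD replicate 5. The member with the largest change was Rpl3l, a muscle form of Rpl3, from 2.53 to 1.03 CPM (-1.30). Mitochondrial ribosomal proteins had 11 up and 0 down of 78 (median 0.083), with 6 without SD replicate 3 and 7 without SD replicate 6 up. Ribosome biogenesis had 9 up and 2 down of 44 (median 0.074), which became 15 up in the model without the sixth MET+LEU library, and the number down was 0 without 2% HS replicate 4 and 1 without 2% HS replicate 5, or SD replicate 1, 2, 3, 4 or 5. Translation factors had 6 up and 5 down of 45 (median 0.031). They changed in 24.4% of members, near the share of all genes. Among them, Eef1a2, the elongation factor of mature muscle, fell from 12 to 5.84 CPM (-0.90) and the translation inhibitor Eif4ebp1 by 0.43. Nuclear genes of oxidative phosphorylation had 6 up and 1 down of 77 (median 0.064), and the number up was 2 without 2% HS replicate 2 or 6, or SD replicate 1, 3 without 2% HS replicate 5, or SD replicate 3 or 6, and 12 without SD replicate 5. The tricarboxylic acid cycle had 3 up and 3 down of 26 (median -0.025), also near that share (23.1%), the number down was 5 without SD replicate 1, and Pcx, pyruvate carboxylase, fell by 0.52. Of 13 mitochondrially encoded mRNAs, only mt-Nd4l passed the test (1.39, adjusted p = 0.038). SD replicate 5 was at 43.8 CPM, where the median of SD was 5.98 CPM and that of 2% HS 4.25 CPM. Without that library the log2 fold change was 0.37. mt-Nd4l lost its call without 2% HS replicate 1, 2, 3, 5 or 6, or SD replicate 5 (adjusted p = 0.055 to 0.42).

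Classes of transcript differed in direction. Of 12633 protein-coding genes tested, 2131 rose and 1773 fell. Among sense-intronic transcripts, which lie within an intron of another gene on its strand, 37 fell and 1 rose of 172 (median -0.29). Among the transcribed regions that the annotation holds as awaiting experimental evidence, 170 fell and 16 rose of 1058 (median -0.23). Long intergenic non-coding RNAs had 71 down and 23 up of 391 (median -0.15), antisense RNAs 41 down and 9 up of 332 (median -0.13), and non-coding transcripts of mixed kind 38 down and 9 up of 236 (median -0.12). Of the last, the number up was 4 without SD replicate 3. Across all genes 13.9% rose and 13.9% fell. Of sense-intronic transcripts 21.5% fell and 0.581% rose, and of the regions awaiting evidence 16.1% and 1.51%. The shares down and up were 18.2% and 5.88% for intergenic RNAs and 12.3% and 2.71% for antisense RNAs. For transcripts of mixed kind they were 16.1% and 3.81%. These classes thus differed from all genes more by fewer increases than by more decreases. Reads of a sense-intronic transcript cannot be told apart from unspliced RNA of its host gene, nor those of an antisense RNA from its partner gene where strand was not used, and the part of unspliced RNA was not tested. Nuclear ribosomal RNA took 0.217% to 0.702% of the counts in 2% HS and 0.209% to 0.890% in SD.

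**Figure D4:**
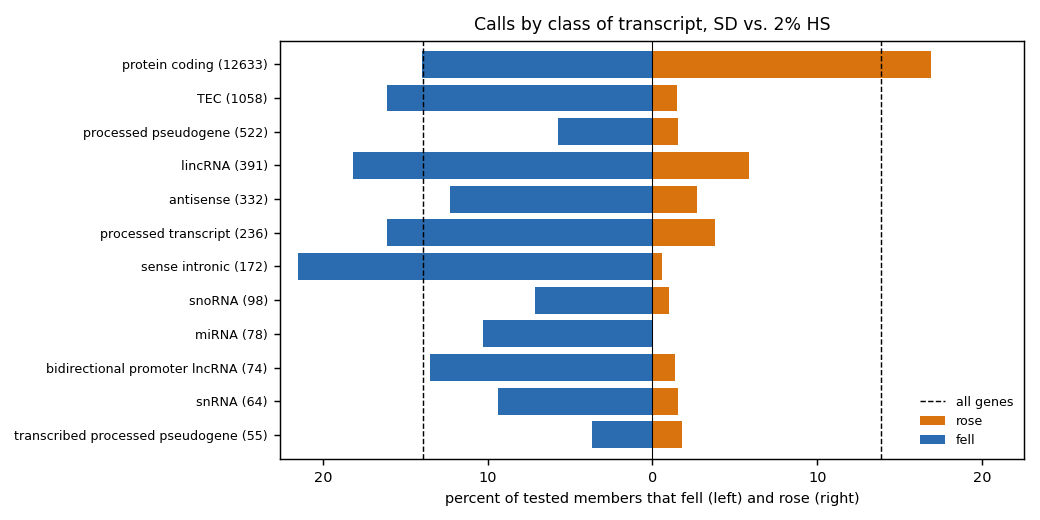
Percent of tested genes that rose (right) and fell (left) at an adjusted p under 0.05 in each class of transcript with at least 50 tested genes, with the number tested in brackets. Dashed lines mark the 13.9% of all genes in each direction. Only protein-coding genes rose more often than they fell.

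The other serum-deprived groups share the 2% HS libraries as their control, so their levels are set side by side without a test. Dpt had a median of 5.86 CPM in 2% HS and 48.1 in SD, and its medians with MET, LEU and MET+LEU were 45.5, 47.1 and 49.2 CPM. Slc2a4 had 9.22 CPM in 2% HS and 2.56 in SD, and its medians with MET, LEU and MET+LEU were 2.10, 2.70 and 2.56 CPM. Col12a1 stood at 1288 CPM in 2% HS and 2899.6 in SD, and its medians with MET, LEU and MET+LEU were 2939, 2993 and 3262 CPM. Ckm had 309 CPM in 2% HS and 152 in SD, and its medians with MET, LEU and MET+LEU were 139, 150.1 and 151 CPM. For these genes the 3 supplemented groups lay near SD and away from 2% HS. Cdc6 had 1.97 CPM in 2% HS and 3.44 in SD, and its medians with MET, LEU and MET+LEU were 2.38, 1.996 and 2.27 CPM. Hist1h3g had 6.90 CPM in 2% HS and 10.2 in SD, and its medians with MET, LEU and MET+LEU were 9.47, 8.02 and 5.71 CPM. For Cdc6 the medians of all 3 supplemented groups lay nearer to 2% HS than to SD, and for Hist1h3g those of LEU and MET+LEU did. Differences among the serum-deprived groups were not tested here.

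**Figure D5:**
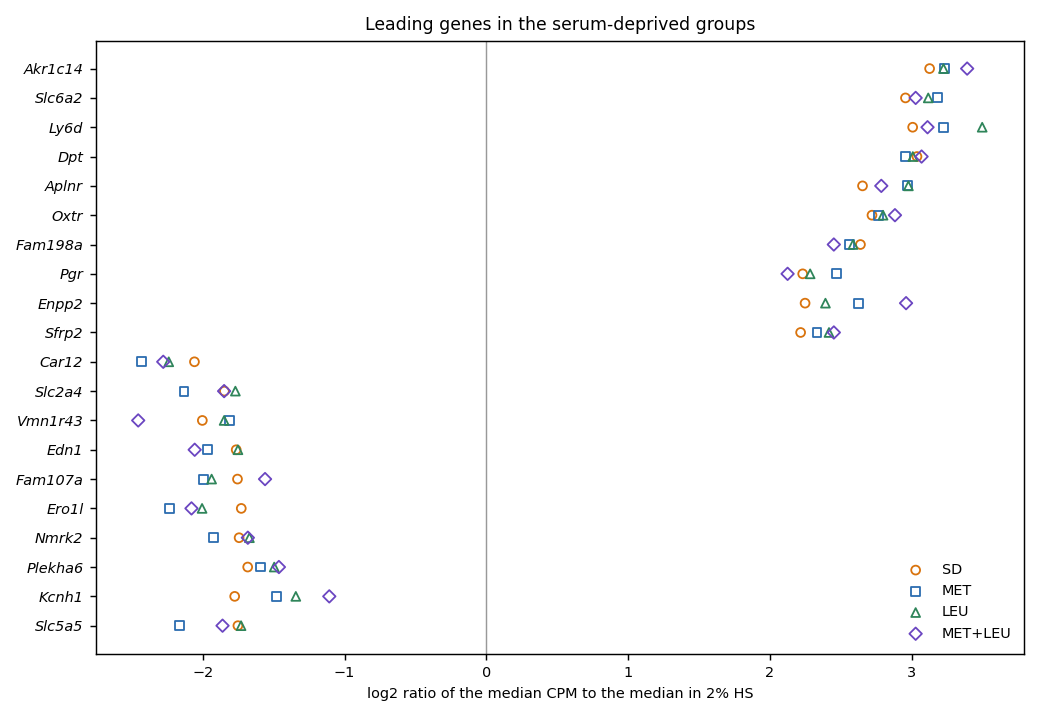
Log2 ratio of each group's median CPM to the median in 2% HS for the 20 leading genes, with 1 marker per gene for SD, MET, LEU and MET+LEU (6 libraries each, no error shown). The groups share their control. The ratios of Dpt lie between 2.96 and 3.07 and those of Slc2a4 between -2.13 and -1.77.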

How the data were processed

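Total RNA of C2C12 myotubes was sequenced with a stranded kit after removal of ribosomal RNA, as 150 × 150 bp reads. The authors deposited a table of raw read counts per gene. The submitters' processing notes name cutadapt 1.16, STAR 2.7.6a, featureCounts 1.6.3 and DESeq2 1.30.1 and the build GRCm38, and the strand setting and annotation release are not given in the sources used here. Gene IDs were matched to GENCODE M21 for 55227 of 55487 genes. The unmatched genes held 0.00434% of the counts.

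The groups came from the sample titles. All 30 libraries were fitted in 1 model of 5 groups with edgeR 4.0.16 in R 4.3.3, with TMM factors, filterByExpr (minimum count 10, minimum total 15) and the robust quasi-likelihood test of SD against 2% HS. P-values were adjusted by Benjamini-Hochberg over 15907 genes with a threshold of 0.05, and all tests were two-sided. The biological coefficient of variation was 0.0709. Tested on simulated data for this comparison, with 200 of 15907 genes changed, edgeR recovered 135 at 1.25-fold, 189 at 1.5-fold and 198 at 2-fold. False calls were 9 of 144, 7 of 196 and 4 of 202. The changed genes were drawn only from those above a set expected count, and counts were simulated with the spread fitted to these data. Recovery of changes in genes with low counts was therefore not tested. Alternatives used DESeq2 1.42.0, limma 3.58.1, other factors, filters and thresholds, and left out single libraries.

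The 57 gene lists and 9 marker lists, and the comparison itself, were chosen with earlier results of these data known. Beside the leading genes, up to 4 members with the largest changes were named in each list with those that went against it, a fixed set of genes whatever their result, the marker genes, and other members with their values. Lists were described by counts and medians, with no test of the list. Upstream sequences were RefSeq's, from the 250 bases before 1 start per gene, which lay within 1000 bases of the GENCODE gene's 5′ end. Some genes are not reported here.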

Additional observations from a re-analysis of the deposited data

Results flagged for a closer look

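A library that lay apart from the other 5 of its group was looked for in each gene named in the text, in 2% HS and in SD. The measure was the gap to the nearest library divided by the range of the group, and a ratio above 0.625 was marked. It was exceeded in 40 of 748 groups (5.35%). Chance gives about 1 in 20 for independent groups, and genes that move together are not independent. Of the 40, 10 fell on 2% HS replicate 1. The ratios follow the gene names. 2% HS replicate 1 lay above the others for Plekha6 (0.641), Myh4 (0.693), Lama4 (0.725), Tgm2 (0.649), P4ha2 (0.633), Slc2a1 (0.694), Pfkl (0.731) and Mki67 (0.696), and lay below the others for Amotl1 (0.639) and Mylip (0.692). 2% HS replicate 2 lay above the others for Nfe2l2 (0.748), Loxl2 (0.647), Mdm2 (0.681) and Cdkn1b (0.716). 2% HS replicate 3 lay above the others for Col4a5 (0.652) and Srf (0.669). 2% HS replicate 4 lay above the others for Aurkb (0.628). 2% HS replicate 5 lay above the others for Colq (0.643), Col6a3 (0.68) and Gm12185 (0.685), and lay below the others for Bag3 (0.69) and Boc (0.688). 2% HS replicate 6 lay above the others for Sox9 (0.716), Cdc6 (0.632) and Angptl4 (0.628), and lay below the others for Sfrp4 (0.703). SD replicate 1 lay above the others for Sfrp2 (0.669) and Manf (0.652), and lay below the others for Postn (0.628). SD replicate 2 lay above the others for Asns (0.729), and lay below the others for Col4a2 (0.655), Tnnt3 (0.651), Axin2 (0.72), Ppargc1a (0.753) and Ccnd1 (0.678). SD replicate 3 lay below the others for Atf6 (0.728). SD replicate 5 lay above the others for mt-Nd4l (0.916) and Rerg (0.633). SD replicate 6 lay above the others for Cdk1 (0.726), and lay below the others for Cp (0.701). The highest ratio was that of mt-Nd4l, with 43.8 CPM in SD replicate 5 and a group median of 5.98 CPM.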

How the results depend on the processing

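The number of genes that changed was within 1.5 times of 4424 under every alternative that was run. It was 4431 with DESeq2's size factors, 4401 with upper-quartile factors (2049 up and 2352 down), 4195 with the looser filter and 4178 with the stricter one, 4565 with DESeq2's Wald test, 4531 with limma-voom, 4393 in a model of the 12 libraries, 4901 in a model without the sixth MET+LEU library, which stood apart by its ribosomal RNA, and 3019 at an adjusted p under 0.01. With 1 library left out it ranged from 3914 (without SD replicate 3) to 4450 (without SD replicate 5). The sources used here do not say whether the replicate numbers pair the cultures. Deviations of same-numbered libraries had a mean correlation of -0.0046, and 0 of 6 pairs were over 0.1. These correlations cannot tell whether same-numbered cultures were handled together. With the replicate number as a block, 4498 genes changed in the model of 30 libraries and 4177 in that of 12. Of 322 genes named here as changed, 14 lost the call when some library was left out. With all of the 12 libraries kept, 6 lost it under another setting than the stricter threshold, namely Col4a5, Egr1, Fos, Ldha, Mylpf and mt-Nd4l. None of the 322 genes had the opposite sign in any of the 12 models with a library left out or the 11 other settings. Of 1728 counts of list members with a library left out, 107 moved by over 1.5 times, most of them counts of a few genes, and of 792 list medians 5 moved by more than the spread between libraries, among them LXR targets (-0.10 without 2% HS replicate 4) and the lysosome, whose median changed sign (-0.0017 without SD replicate 1). Members that fell under the filter on low counts were not tested.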

Other observations

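The genes named in these paragraphs were chosen after their values were seen. Some genes known as targets or partners of sex steroid receptors rose beside Pgr and Oxtr. Greb1, an oestrogen-induced coactivator, had 71.3 to 83.1 CPM (median 76) in 2% HS and 189 to 248 CPM (median 203) in SD (log2 fold change 1.46, SE 0.05, adjusted p = 2.0e-23). Aff3, a transcription elongation protein, had 10.8 to 16.5 CPM (median 12) in 2% HS and 54.7 to 63.7 CPM (median 59.1) in SD (log2 fold change 2.23, SE 0.09, adjusted p = 2.3e-19), and Rerg, an oestrogen-regulated GTPase, rose from 2.54 to 6.33 CPM (1.34). The oestrogen receptor transcript Esr1 was at 39.6 to 44.8 CPM (median 43) in 2% HS and 36 to 42.5 CPM (median 40.05) in SD and did not pass the test (-0.11, adjusted p = 0.21). Guanylate-binding protein genes of the chromosome 5 cluster rose, Gbp8 by 1.84, Gbp4 by 1.54, Gbp10 by 1.20, Gbp9 by 0.97 and Gbp6 by 0.96. They are near-copies, Gbp4, Gbp8 and Gbp9 overlap in the annotation, and reads may be divided among them, so single members are uncertain. The transporters Slc1a3 for glutamate (9.46 to 42.5 CPM, 2.14) and Slc5a7 for choline (2.77 to 11.5 CPM, 2.06) rose.

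Txnip, which blocks glucose uptake and binds thioredoxin, had 32.8 to 43.6 CPM (median 38) in 2% HS and 91.7 to 134 CPM (median 111) in SD (log2 fold change 1.54, SE 0.09, adjusted p = 3.9e-13), opposite to the glucose transporter genes. The glycogen-targeting subunits Ppp1r3c (5.32 to 2.59 CPM, -1.17) and Ppp1r3b (5.73 to 2.57 CPM, -1.10) fell. Hgf, a growth factor of satellite cells, had 25.4 to 29.8 CPM (median 28) in 2% HS and 65.7 to 80.5 CPM (median 69.8) in SD (log2 fold change 1.36, SE 0.07, adjusted p = 2.2e-17), and cyclin D1 (Ccnd1), which serum usually induces, rose from 8.43 to 20.8 CPM (1.19). Cilp, a matrix protein of cartilage and fibroblasts, had 363 to 397 CPM (median 386) in 2% HS and 778 to 869 CPM (median 840.0) in SD (log2 fold change 1.13, SE 0.04, adjusted p = 8.3e-30), whereas Adamtsl1, a secreted protein related to matrix proteases, fell from 112 to 48.2 CPM (-1.22) and Thbd, thrombomodulin, from 15.3 to 4.67 CPM (-1.58). Of genes with predicted names, Gm12248 was at 0.481 to 6.66 CPM (3.50) and Gm12185 at 3.98 to 1.31 CPM (-1.81).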
